A study of Homo sapiens with 6 samples.

Results

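The genes described here are 10 genes of the antioxidant programme governed by the transcription factor NRF2: NFE2L2, KEAP1, NQO1, HMOX1, GCLC, GCLM, TXNRD1, TXN, SRXN1 and SOD2. They were taken by symbol from a table of 63129 listed genes, of which 63009 had 1 value for each library and were read. All 10 were found once, and 9 of them were among the 13993 genes whose mean over the 6 libraries reached 1 FPKM, the floor for testing. FPKM counts sequenced fragments per kilobase of transcript, scaled to the mapped fragments of the library, so levels of different genes can be set side by side. HMOX1 lay below that floor and was not tested.

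The study asked how oncogenic Ras disturbs mitosis before cells become senescent, and profiled RNA of cells caught in mitosis. All 6 libraries came from ERRAS cells, IMR90 human fetal lung fibroblasts that carry H-RasV12 fused to the ligand-binding domain of the estrogen receptor, so that tamoxifen switches Ras signaling on. Libraries 1 to 3 of the uninduced group came from cells without tamoxifen, and libraries 1 to 3 of the induced group from cells given 100 nM tamoxifen, as labelled, for 4 days; the study's methods name 4-hydroxytamoxifen at another dose. Both groups were grown at 3% oxygen in 20% fetal calf serum with G418, then arrested with 1 µM dimethylenastron (DME), an inhibitor of the mitotic kinesin Eg5. Detached cells were collected by washout at a mitotic index above 90%, and poly(A) RNA was sequenced in paired-end libraries. Every value below is therefore from cells under a spindle poison, and no unarrested library was analysed here. A figure caption of the study gives 3 independent repeats, while the labels do not say which libraries share a repeat.

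NRF2, encoded by NFE2L2, activates genes through the antioxidant response element in their promoters. In unstressed cells KEAP1 holds NRF2 and hands it to a CUL3 ubiquitin ligase for destruction; oxidants and electrophiles modify KEAP1 and let NRF2 accumulate. Its targets make glutathione, reduce thioredoxin and peroxiredoxins, and detoxify quinones and haem, and oncogenic Ras is known to engage this programme in several cell types. NRF2 is controlled largely at the protein level, which was not measured here.

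The libraries were first set against markers of their labelled cells. Here and below, an altered gene is one with a p at or under 0.05 in limma on log2(FPKM + 1), two-sided and adjusted by Benjamini-Hochberg (BH) over all 13993 tested genes. Of 10 fibroblast markers all were above the floor, led by VIM, the intermediate filament vimentin, at a mean of 2199 FPKM. Their summed level was 5631, 6593 and 6602 FPKM in the uninduced and 4107, 5371 and 4015 FPKM in the induced libraries. The log2 fold change was below 0 for 8 of the 10, for 6 (60%) every induced library lay below every uninduced one, against 12.8% of all tested genes, and 4 (40%) were altered downwards, against 5.67%. DCN, a matrix proteoglycan, went from 184, 234 and 335 FPKM to 25.1, 28.2 and 20.8 FPKM. The 8 mitotic markers summed to 1922, 1902 and 1938 FPKM in uninduced and 1532, 1712 and 1655 FPKM in induced cells, with CCNB1 (cyclin B1) the most abundant at a mean of 516 FPKM. All 8 had a log2 fold change below 0, 7 (87.5%) were lower in every induced library than in any uninduced one, against 12.8% of all tested genes, and 4 (50%) were altered downwards, against 5.67%. These 4 calls held in 3, 7, 7 and 9 of the 13 alternative fits listed under the processing. The 4 endothelial markers stayed under 0.1 FPKM in every library, with PECAM1 at 0 in all 6, and their sums ran from 0.0738 to 0.138 FPKM. Of 5 leukocyte markers CD3E and ITGAM were at 0 throughout, and nearly all of the summed 25.2 to 35.7 FPKM was CD68, a lysosomal protein gene at a mean of 30.5 FPKM. The 5 epithelial markers summed to 21.9, 35.1 and 19.1 FPKM in uninduced and 21.3, 23.6 and 23.4 FPKM in induced cells, with KRT5 at a mean of 11.6 FPKM the most abundant. In limma 0 of the 3 tested epithelial markers and 0 of the 1 tested leukocyte marker were altered, and CD68 alone had an unadjusted p under 0.05. The part that the lower fibroblast and mitotic markers have in the results below was not tested.

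Targets of ERK, a kinase downstream of Ras, were read next. Of 10 listed, all tested, 7 were altered upwards and 1 downwards (80% altered, against 16.7% of all tested genes). DUSP6, a phosphatase gene switched on by ERK, stood at 3.31, 1.92 and 2.23 FPKM in uninduced and 39.8, 21.2 and 37.2 FPKM in induced cells. EGR1, DUSP4 and SPRY2 were altered upwards as well, by 2.00, 1.65 and 1.20 on the log2 scale, and FOSL1, a component of AP-1 and the most abundant of the 10, fell by 1.18. ETV4 and ETV5 were not altered (log2 fold changes 0.32 and 0.19, limma, BH-adjusted p = 0.2001 and 0.4385). HRAS itself was at 1174, 1176 and 1140 FPKM in uninduced and 1439, 1847 and 1473 FPKM in induced cells. It was altered upwards (log2 fold change 0.44, limma, BH-adjusted p = 0.0431). Transcripts of the endogenous gene and of the fusion cannot be told apart in these values.

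Of the 9 tested genes of the NRF2 programme, 4 were altered between the groups: SRXN1, TXNRD1 and KEAP1 were higher in induced cells and GCLC was lower. The 4 genes are 44.4% of those tested, against 16.7% of all tested genes; 3 were higher (33.3%, against 11.0%) and 1 was lower (11.1%, against 5.67%). Under quantile normalization and under upper-quartile scaling 1 gene was higher and 1 lower, beside 15.4% and 14.5% of all tested genes altered. With 1 library left out 2 of the 9 genes were altered without uninduced replicate 1 or 2 (6.99% and 6.26% of all tested genes) and 1 without uninduced replicate 3 (13.4%) or induced replicate 1 (7.45%), 2 (10.3%) or 3 (6.15%). All 3 induced libraries lay on the same side of all 3 uninduced libraries for 5 of the 9 genes (55.6%), these 4 and SOD2, against 39.9% of all tested genes. The difference between these shares was not tested, and with 9 genes each gene is a large part of its share. The median log2 fold change was 0.26 over the 9 genes and 0.10 over all tested genes. Fold changes are on the log2(FPKM + 1) scale, which understates changes of low genes. The p-values measure only the spread between these libraries, and in these bulk samples a shift in the cells collected and a change of RNA per cell cannot be told apart.

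**Figure D1:**
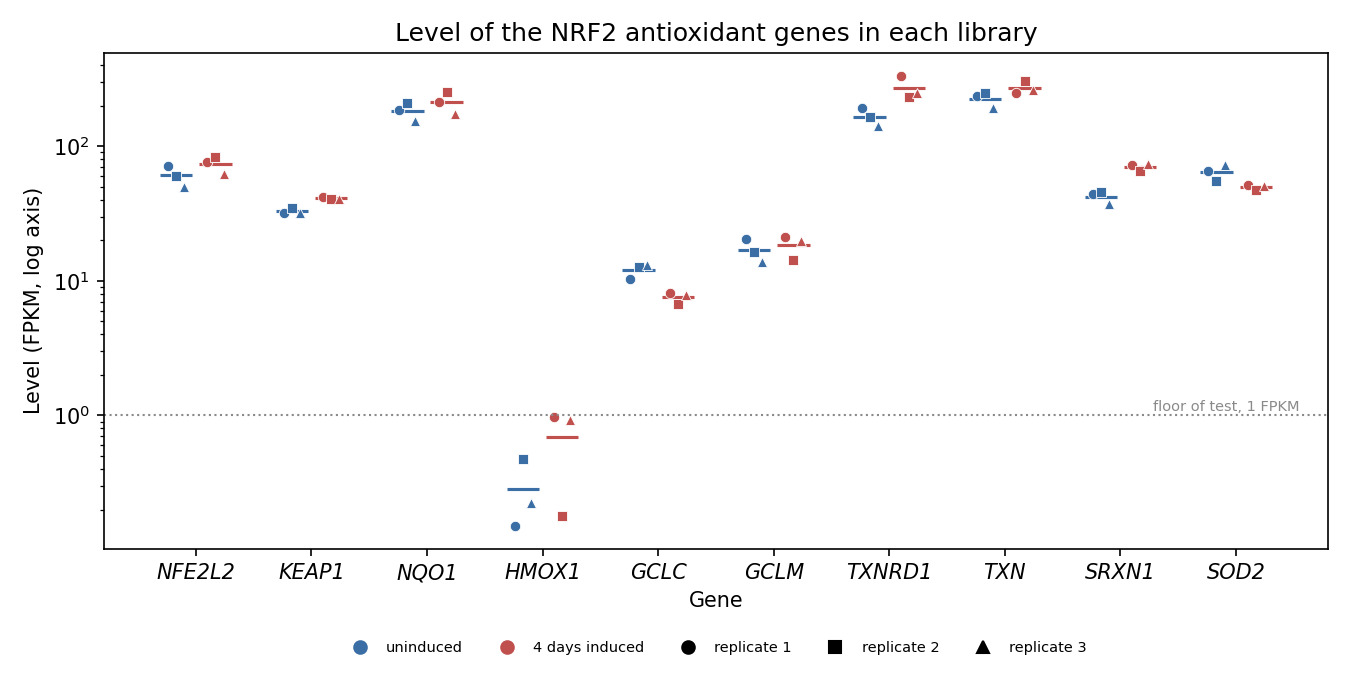
Level of each of the 10 genes in FPKM on a log axis, with 1 point per library (blue uninduced, red induced for 4 days, symbol for the replicate number) and a line at the mean of each group. The groups stand apart for KEAP1, GCLC, TXNRD1, SRXN1 and SOD2, and HMOX1 lies below 1 FPKM in every library.

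The levels of the 10 genes covered a wide range. In uninduced cells the order of mean FPKM was TXN (226 ± 29.5, SD, n = 3), NQO1 (183 ± 29.1), TXNRD1 (166 ± 26.0), SOD2 (64.4 ± 9.14), NFE2L2 (60.6 ± 10.9), SRXN1 (42.2 ± 4.46), KEAP1 (32.8 ± 1.70), GCLM (16.9 ± 3.43), GCLC (12.0 ± 1.54) and HMOX1 (0.283 ± 0.170). The ranges over libraries of neighbours in this order overlapped for TXN and NQO1, for NQO1 and TXNRD1, and for SOD2 and NFE2L2, and were apart for the others. In induced cells the order was TXNRD1 (271 ± 55.9, SD, n = 3), TXN (270.4 ± 30.4), NQO1 (213 ± 39.9), NFE2L2 (74.0 ± 10.8), SRXN1 (70.5 ± 4.22), SOD2 (49.7 ± 2.09), KEAP1 (40.9 ± 0.891), GCLM (18.5 ± 3.59), GCLC (7.60 ± 0.733) and HMOX1 (0.690 ± 0.444). There TXNRD1 and TXN, TXN and NQO1, and NFE2L2 and SRXN1 overlapped. TXN, NQO1 and TXNRD1 were each above at least 95.97% of tested genes in uninduced cells, while GCLC was above 49.2% of them before and 37.03% after induction.

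The sensor pair was read first. NFE2L2 stood at 71.7, 60.2 and 50.0 FPKM in uninduced and at 76.9, 83.0 and 62.0 FPKM in induced cells. The groups overlapped, since uninduced library 1 exceeded induced library 3, and NFE2L2 was not altered (log2 fold change 0.29, SE 0.16, 95% interval -0.10 to 0.67, limma, BH-adjusted p = 0.263). The fold change depended on single libraries, at 0.16 without uninduced replicate 3 and 0.41 without uninduced replicate 1, and was 0.195 after quantile normalization and 0.18 after upper-quartile scaling. In the GENCODE annotation its exons share 3509 bases with HNRNPA3 on the opposite strand, a gene at a mean of 237 FPKM. Whether the counting used strand is not given in the sources used here, and the study took splice junctions from an Ensembl release that was not analysed here, so it is not known whether reads of the 2 genes in those bases were told apart.

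KEAP1 (chr19:10596801-10614234 of GRCh37, minus strand), the adaptor that marks NRF2 for destruction, was at 31.7, 34.8 and 31.9 FPKM in uninduced and 41.9, 40.2 and 40.6 FPKM in induced cells. Both groups were tight and did not overlap, each induced library lying above each uninduced one. KEAP1 was altered upwards, with a log2 fold change of 0.31 (SE 0.07, limma, BH-adjusted p = 0.0347) and a ratio of means of 1.25. The call depended on the scaling between libraries. The upper quartile of tested genes was 34.5, 34.2 and 32.9 FPKM in uninduced and 36.6, 36.8 and 36.3 FPKM in induced libraries. After quantile normalization the log2 fold change of KEAP1 was 0.20 (limma, BH-adjusted p = 0.114) and after upper-quartile scaling 0.20 (adjusted p = 0.113), and eBayes without a trend and the replicate number as a block also lost the call (adjusted p = 0.0579 and 0.0582), in a range of adjusted p from 0.0306 to 0.114 over 13 alternative fits. Leaving out any 1 of the 6 libraries also ended the call, with adjusted limma p from 0.0539 without uninduced replicate 3 to 0.0947 without induced replicate 3. The log2 fold change in those fits ran from 0.29 to 0.35, and it was 0.31 in eBayes without a trend and with the block.

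The ratio of NFE2L2 to KEAP1 was 2.26, 1.73 and 1.57 in uninduced and 1.84, 2.06 and 1.53 in induced libraries. These values overlapped throughout. The log2 difference of the ratio was -0.03 (exact permutation over the 20 assignments of the libraries, two-sided p = 0.9). Its sign turned with single libraries, from -0.14 without uninduced replicate 3 to 0.12 without uninduced replicate 1 and 0.088 without induced replicate 3.

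NQO1, which reduces quinones to hydroquinones, was among the most abundant genes of the programme, at 186, 211 and 153 FPKM in uninduced and 212, 253 and 174 FPKM in induced cells. In each group library 3 was the lowest and library 2 the highest, and the groups overlapped. NQO1 was not altered (log2 fold change 0.21, SE 0.17, 95% interval -0.20 to 0.62, limma, BH-adjusted p = 0.424). Here too single libraries weighed, with a fold change of 0.077 without induced replicate 2 and 0.35 without induced replicate 3, and it was 0.16 after quantile normalization and 0.10 after upper-quartile scaling. An antisense non-coding gene, CTD-2033A16.1, shares 575 exon bases with it and was at a mean of 18.6 FPKM.

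HMOX1, the inducible haem oxygenase, was barely present. Its values were 0.151, 0.475 and 0.225 FPKM in uninduced and 0.965, 0.178 and 0.928 FPKM in induced cells. Induced libraries 1 and 3 were the highest, and induced library 2 lay within the uninduced range. With no floor on low values its log2 fold change was 0.37 and the BH-adjusted p = 0.470 in limma.

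Glutamate-cysteine ligase catalyses the rate-limiting step of glutathione synthesis, with a catalytic subunit encoded by GCLC and a modifier subunit encoded by GCLM. GCLC (chr6:53362139-53481768 of GRCh37, minus strand) was at 10.3, 12.6 and 13.2 FPKM in uninduced and 8.16, 6.77 and 7.87 FPKM in induced cells. Every induced library lay below every uninduced one. GCLC was altered, and fell by 0.59 on the log2 scale (SE 0.13, limma, BH-adjusted p = 0.0245), a ratio of means of 0.632. It was altered downwards under both other scalings. The call was lost with no floor on low values (limma, adjusted p = 0.0572) and without any 1 library except uninduced replicate 1, with adjusted limma p up to 0.103 without uninduced replicate 2 and a range of 0.0142 to 0.103 over all 13 alternatives. The log2 fold change was -0.59 with no floor and ran from -0.69 to -0.52 with 1 library left out.

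GCLM was at 20.6, 16.4 and 13.8 FPKM in uninduced and 21.2, 14.4 and 19.8 FPKM in induced cells. The groups overlapped, and the induced group held both the highest value and the second lowest. GCLM was not altered (log2 fold change 0.12, SE 0.19, 95% interval -0.33 to 0.57, limma, BH-adjusted p = 0.700), and the fold change was 0.021 after quantile normalization, 0.014 after upper-quartile scaling and -0.01 without uninduced replicate 3. The ratio of GCLM to GCLC, which 1 scaling factor per library cannot change, was 2.00, 1.30 and 1.05 in uninduced and 2.60, 2.13 and 2.51 in induced libraries. The induced libraries had the higher ratios with no overlap, although uninduced library 1 came close to induced library 2. The log2 difference was 0.78, and the exact permutation test gave two-sided p = 0.1, the smallest that 3 against 3 libraries allow, or 0.3 adjusted by BH over the 3 ratios computed. The ratios were chosen after the values had been seen.

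**Figure D2:**
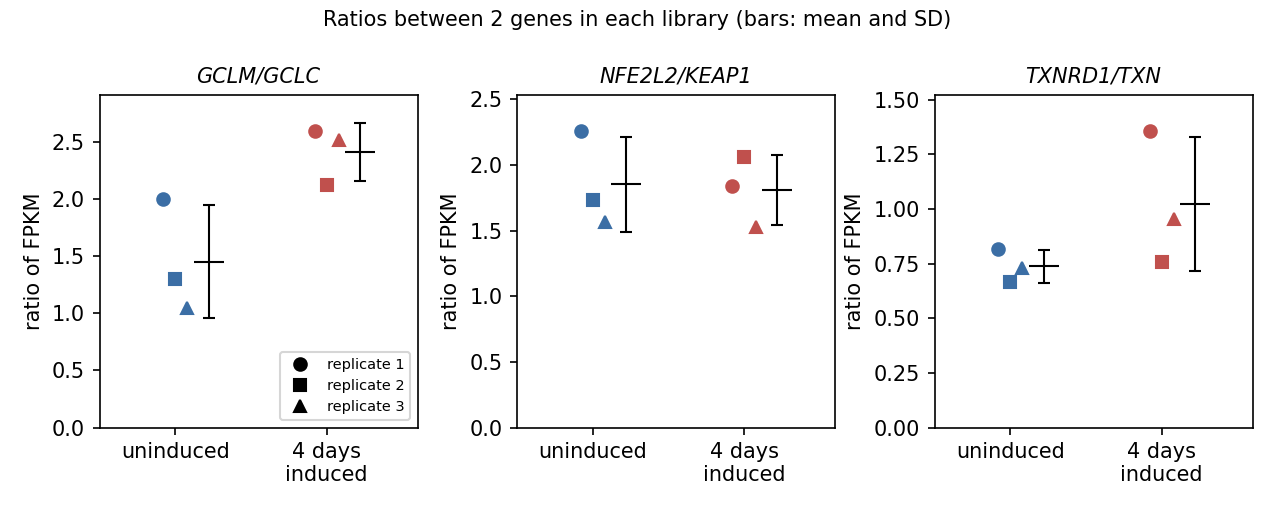
Ratio of FPKM between 2 genes in each library, from left to right GCLM to GCLC, NFE2L2 to KEAP1 and TXNRD1 to TXN, with the mean and SD of each group as bars beside the points. The groups are apart only for GCLM to GCLC, at 1.05 to 2.00 in uninduced and 2.13 to 2.60 in induced cells.

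Of the 3 genes around thioredoxin, SRXN1 and TXNRD1 were altered. SRXN1 (chr20:627259-633844 of GRCh37, minus strand) encodes sulfiredoxin, which repairs overoxidized peroxiredoxins. It was at 43.9, 45.5 and 37.1 FPKM in uninduced and 72.2, 65.8 and 73.7 FPKM in induced cells. The groups were far apart, the lowest induced library exceeding the highest uninduced one by more than either group's spread. SRXN1 rose by a log2 fold change of 0.73 (SE 0.10, limma, BH-adjusted p = 0.00725), a ratio of means of 1.67. It was altered in all 13 alternative fits, with adjusted limma p from 0.00482 to 0.0400, and was the only one of the 9 genes for which that held, although its fold change lies below the separate threshold of 1 on the log2 scale, which 0 of the 9 genes and 3.92% of all tested genes passed while altered (5 of the 9 genes had an unadjusted limma p under 0.05, against 33.6%). The share of all tested genes altered in all 13 fits is not given here. A second annotated gene shares 2292 exon bases with SRXN1 on the same strand and was at a mean of 0.137 FPKM.

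TXNRD1 (chr12:104609557-104744085 of GRCh37, plus strand), the cytosolic thioredoxin reductase that recycles thioredoxin with NADPH, was at 192, 166 and 140 FPKM in uninduced and 335, 231 and 248 FPKM in induced cells. The groups did not overlap, and induced library 1 was well above the other two. The log2 fold change was 0.70 (SE 0.17, limma, BH-adjusted p = 0.0400), a ratio of means of 1.63. The fold change stayed between 0.54 and 0.81 over all 13 alternatives, but the call was lost in limma after quantile normalization (adjusted p = 0.0743), after upper-quartile scaling (adjusted p = 0.0618), with no floor on low values (adjusted p = 0.104), in eBayes without a trend (adjusted p = 0.0573) and without any 1 library, where the adjusted p ran from 0.0624 without induced replicate 2 to 0.126 without uninduced replicate 2. Over all alternatives the adjusted p ran from 0.0183 to 0.126. TXNRD1 spans RPL18AP3, a processed pseudogene at a mean of 132 FPKM with which it shares no annotated exon base.

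TXN, thioredoxin itself, was the most abundant of the 10 genes in uninduced cells, at 235, 249 and 192 FPKM, and stood at 247, 305 and 260 FPKM in induced cells. The groups overlapped slightly, induced library 1 lying just below uninduced library 2. TXN was not altered (log2 fold change 0.26, SE 0.13, 95% interval -0.04 to 0.57, limma, BH-adjusted p = 0.202), and the fold change ran from 0.15 after upper-quartile scaling or without uninduced replicate 3 to 0.34 without uninduced replicate 2. The ratio of TXNRD1 to TXN was 0.818, 0.666 and 0.728 in uninduced and 1.36, 0.758 and 0.955 in induced libraries. Induced library 2 fell within the uninduced range, and the exact permutation test gave two-sided p = 0.2 (0.3 after BH adjustment over the 3 ratios).

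SOD2, the mitochondrial manganese superoxide dismutase, is also a target of NF-kappaB. It was at 65.5, 54.8 and 72.96 FPKM in uninduced and 51.2, 47.3 and 50.6 FPKM in induced cells. The induced libraries were all lower than the uninduced ones, and closer together. The log2 fold change was -0.36 (SE 0.11, 95% interval -0.63 to -0.08), and SOD2 was not altered at the threshold (limma, BH-adjusted p = 0.0780). It passed in 1 of 13 alternatives, without uninduced replicate 2, with limma, BH-adjusted p = 0.0481 in a range of 0.0481 to 0.182.

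**Figure D3:**
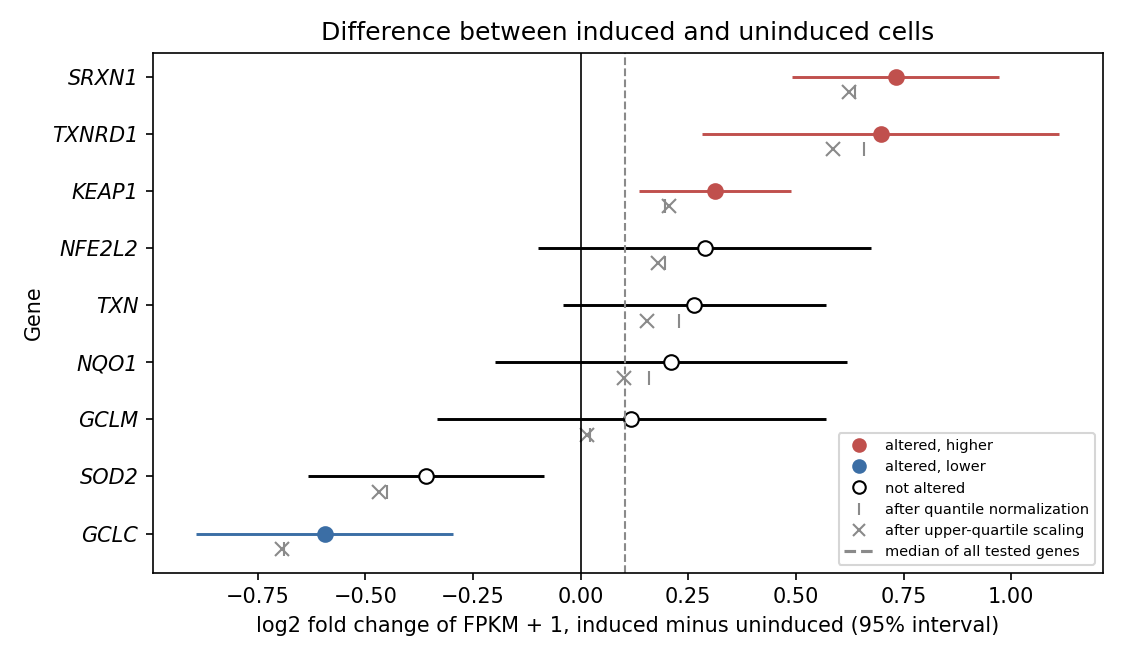
Log2 fold change of FPKM + 1, induced minus uninduced, for the 9 tested genes, with 95% intervals (filled red or blue where altered, open where not). Grey marks give the estimate after quantile normalization or upper-quartile scaling and the dashed line the median of all tested genes, 0.10. SRXN1 and TXNRD1 lie highest and GCLC lowest under each scaling.

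**Figure D4:**
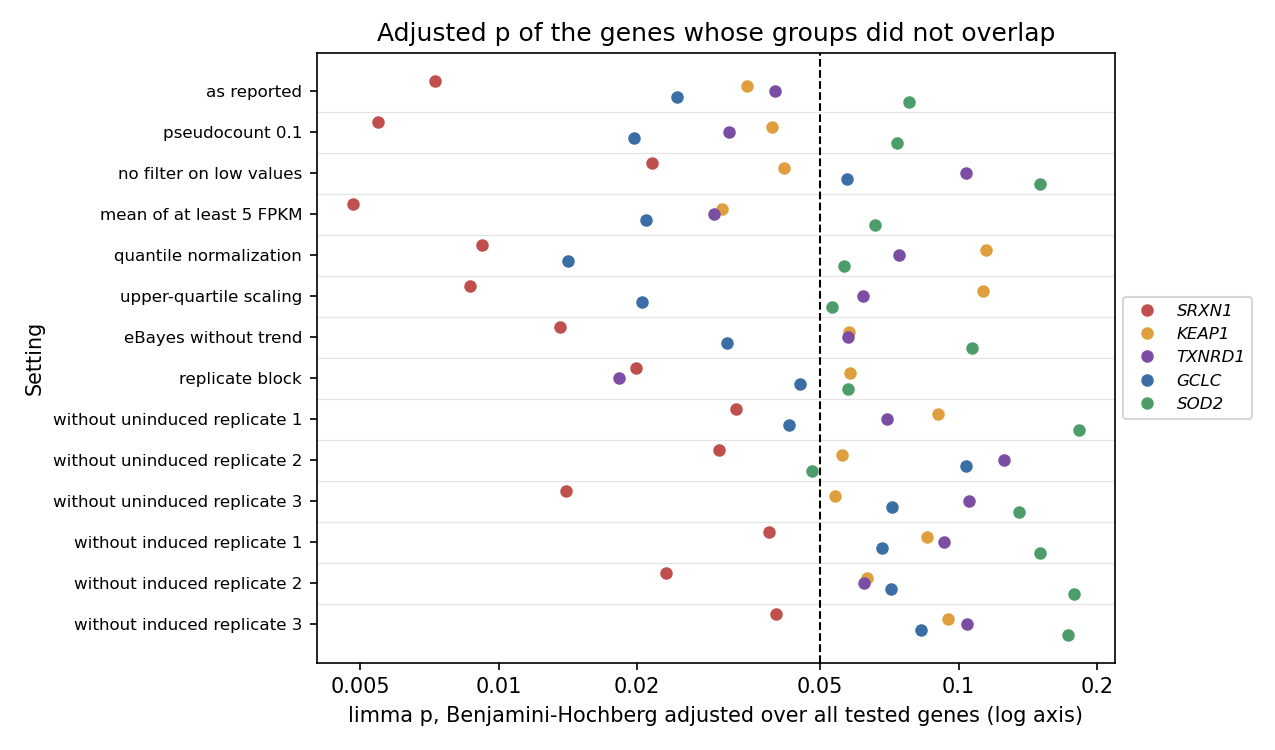
BH-adjusted limma p on a log axis for the 5 genes whose groups did not overlap, under the reported setting and each of 13 alternatives, with a dashed line at 0.05. SRXN1 stays left of the line throughout, and SOD2 crosses it only without uninduced replicate 2.

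Of the 9 tested genes, 6 had their lowest uninduced value in library 3, the library that was also lowest of its group for 46.2% of all tested genes. Among the induced libraries, library 2 was lowest for 6 of the 9 genes, and for 38.9% of all tested genes. Low values placed the depth of uninduced library 3 at 1.17 and of induced library 2 at 0.847 relative to uninduced library 1, the extremes of the 6. Neither the difference of these counts from the shares of all genes nor the part of depth in them was tested.

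The promoters were searched for the letters of the antioxidant response element core, TGACNNNGC, and of the AP-1 element, TGANTCA, on both strands. RefSeq windows of 300 bases (250 before to 50 after a start, GRCh38.p14) were held for 9 of the 10 genes, 15 windows in all, and HMOX1 had none. The first transcribed bases of 13 windows were found in an annotated transcript of their gene; those of the other 2, both of SOD2, were not, and neither of these held a match. The core was found in 4 of the 15 windows, belonging to 3 genes, and in 13.3% of all 35116 windows; the AP-1 letters were in 0 of the 15 and in 7.71% of all windows, so no match overlapped another motif. The 4 windows with the core are printed here, with that of SRXN1, the gene altered in all 13 alternative fits, for comparison. They are the 250 bases before the start, 5′ to 3′ on the strand of the gene, with the core in capitals; the second match of the first TXNRD1 window ends 1 base past the start, and that base is not printed. They lie at chr12:104215529-104215778 and chr12:104286782-104287031 on the plus strand, and at chr19:10502772-10503021, chr1:93909431-93909680 and chr20:653201-653450 on the minus strand.
TXNRD1, first start: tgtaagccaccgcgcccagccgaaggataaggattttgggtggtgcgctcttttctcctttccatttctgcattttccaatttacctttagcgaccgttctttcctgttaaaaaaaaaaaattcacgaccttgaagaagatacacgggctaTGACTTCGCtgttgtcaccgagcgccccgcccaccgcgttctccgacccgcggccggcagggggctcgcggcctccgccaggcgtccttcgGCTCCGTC
TXNRD1, second start: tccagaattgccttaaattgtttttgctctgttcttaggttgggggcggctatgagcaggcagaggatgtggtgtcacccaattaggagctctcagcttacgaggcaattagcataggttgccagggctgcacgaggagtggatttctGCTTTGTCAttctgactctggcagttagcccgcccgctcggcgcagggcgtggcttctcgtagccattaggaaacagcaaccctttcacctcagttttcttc
KEAP1, second start: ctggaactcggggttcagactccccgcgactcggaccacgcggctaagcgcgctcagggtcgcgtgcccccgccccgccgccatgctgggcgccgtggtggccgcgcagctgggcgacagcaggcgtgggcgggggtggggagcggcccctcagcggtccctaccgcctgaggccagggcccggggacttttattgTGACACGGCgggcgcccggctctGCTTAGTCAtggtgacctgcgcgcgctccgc
GCLM: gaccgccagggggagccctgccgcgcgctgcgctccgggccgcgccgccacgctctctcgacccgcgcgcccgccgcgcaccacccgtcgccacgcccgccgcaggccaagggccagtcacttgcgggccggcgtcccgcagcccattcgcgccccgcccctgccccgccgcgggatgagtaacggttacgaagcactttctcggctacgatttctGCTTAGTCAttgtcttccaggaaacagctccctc
SRXN1: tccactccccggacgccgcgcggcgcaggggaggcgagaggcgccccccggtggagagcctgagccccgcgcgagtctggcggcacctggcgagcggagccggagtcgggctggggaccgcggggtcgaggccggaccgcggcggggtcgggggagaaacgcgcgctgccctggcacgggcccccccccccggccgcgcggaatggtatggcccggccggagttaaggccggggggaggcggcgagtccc

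Both TXNRD1 windows held the core: the first start has it 99 bases upstream as TGACTTCGC and 8 bases upstream as GCTCCGTCA, and the second 102 bases upstream as GCTTTGTCA. KEAP1 has TGACACGGC 54 bases and GCTTAGTCA 31 bases upstream. The same letters, GCTTAGTCA, begin 34 bases upstream of GCLM, so the match is shared by a gene that was altered and one that was not. The window of SRXN1 does not hold the core. Bases farther from a start than these windows reach were not searched. A window without a match therefore does not show that its gene lacks the element. A match describes the sequence and does not show that a factor was bound, and binding was not measured.

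Genes around the programme were read from 6 lists of regulators and neighbouring pathways. Together they hold 105 distinct genes, of which 85 were tested and 21 altered, 17 higher and 4 lower. Higher genes were 20% of those tested, against 11.0% of all tested genes, and lower genes 4.71%, against 5.67%. Under quantile normalization the split was 13 to 6, where 48.5% of all altered genes were higher. Under upper-quartile scaling it was 12 to 6, where 45.5% of all altered genes were higher. The 21 genes are 24.7% of those tested, against 16.7% of all tested genes, and the median log2 fold change was 0.20, against 0.10. Of the 21 altered genes, 15 were also altered after quantile normalization and 16 after upper-quartile scaling; PGD, GSS, TXNIP and CAT lost the call under both, SQSTM1 and IDH1 under the former and GLRX3 under the latter. In all 13 alternative fits 7 stayed altered: MAFF, CBR1, GLRX, GLRX2, PRDX2, PRDX5 and ALAS1. The share of all tested genes that stayed altered in all 13 is not given here. Whether the lists differ from other genes was not tested.

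Among 15 regulators of NRF2, 14 were tested and 2 were altered (14.3%, against 16.7% of all tested genes), both upwards, with a median log2 fold change of 0.32. The count was 4 with the replicate number as a block (16.5% of all tested genes altered) and 1 after quantile normalization (15.4%). It was 1 in each fit without 1 library (6.15% to 13.4%), except that without uninduced replicate 1. MAFF, a small Maf protein that pairs with NRF2 on DNA, went from 29.3, 23.0 and 24.7 FPKM to 46.6, 53.0 and 47.6 FPKM. It rose by 0.91 (SE 0.11, limma, BH-adjusted p = 0.00481) with the groups well apart. SQSTM1, which encodes the autophagy receptor p62 that binds KEAP1 and was the most abundant of the list, went from 123, 94.6 and 106 FPKM to 188, 152 and 153 FPKM (log2 fold change 0.60, limma, BH-adjusted p = 0.0269). The groups were again apart, with induced library 1 the highest.

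Of 26 other NRF2 targets, 21 were tested, 4 rose and 2 fell (28.6% altered, against 16.7% of all tested genes), and the median log2 fold change was 0.20. Of all tested genes 11.0% were higher and 5.67% lower in the reported fit. In the list 2 rose and 3 fell after quantile normalization (15.4% of all tested genes altered). After upper-quartile scaling 3 rose and 3 fell (14.5%). The count altered was 2, 1 rise and 1 fall, without uninduced replicate 1 (6.99% of all tested genes) or induced replicate 3 (6.15%). It was 3 without uninduced replicate 2 (6.26%) or induced replicate 1 (7.45%). IDH1, which makes NADPH in the cytosol, went from 21.2, 22.3 and 30.8 FPKM to 58.1, 36.8 and 52.3 FPKM, a log2 fold change of 0.95. CBR1, a carbonyl reductase, rose by 0.68, PGD of the pentose phosphate pathway by 0.51, and UGDH, which makes UDP-glucuronate, by 0.47. ABCC3, a conjugate exporter, went from 2.40, 3.62 and 3.06 FPKM to 0.653, 0.325 and 0.745 FPKM and was the larger of the 2 falls at -1.35, beside MGST1, a microsomal glutathione transferase, at -0.38. The ferritin light chain gene FTL was the most abundant at a mean of 949.6 FPKM and was not altered (log2 fold change 0.33, limma, BH-adjusted p = 0.138).

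In the glutathione system 24 of 30 listed genes were tested, 4 rose and 1 fell (20.8% altered, against 16.7% of all tested genes), and the median log2 fold change, 0.05, was below that of all tested genes. After quantile normalization 4 rose and 2 fell (15.4% of all tested genes altered), and after upper-quartile scaling 2 rose and 2 fell (14.5%). Without uninduced replicate 1 or 2 or induced replicate 3 the count altered was 2, where 6.99%, 6.26% and 6.15% of all tested genes were altered. It was also 2 with no floor on low values (5.17% of all genes) and in eBayes without a trend (14.4%). GLRX, the cytosolic glutaredoxin that removes glutathione from protein thiols, had the highest log2 fold change among the tested genes of the 6 lists in the reported fit: 28.7, 26.1 and 26.6 FPKM became 92.5, 93.0 and 89.5 FPKM. Both groups were tight, and the log2 fold change was 1.72 (SE 0.07, limma, BH-adjusted p = 0.000148). GLRX2 rose by 0.86, GLRX3 by 0.43 and GSS, glutathione synthetase, which acts after glutamate-cysteine ligase, by 0.33. The gene that fell was MGST1, already named, and the most abundant, the transferase gene GSTP1 at a mean of 345 FPKM, had a log2 fold change of 0.02 (95% interval -0.20 to 0.24).

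In the thioredoxin system, 5 of 14 tested genes were altered (35.7%, against 16.7% of all tested genes), all upwards (median log2 fold change 0.18). The count was 2 without uninduced replicate 1, induced replicate 1 or induced replicate 3, where 6.99%, 7.45% and 6.15% of all tested genes were altered. It was 3 without uninduced replicate 2 (6.26%) or 3 (13.4%), and 3 rises and 1 fall without induced replicate 2 (10.3%). TXNDC17 went from 154, 157 and 138 FPKM to 206, 254 and 206 FPKM, a log2 fold change of 0.56. The peroxiredoxin genes PRDX2 and PRDX5 rose by 0.45 and 0.44 and mitochondrial TXN2 by 0.43. The remaining one, named after its value was seen, was TXNIP, an inhibitor of thioredoxin, at 0.41. PRDX1, the most abundant at a mean of 393 FPKM, was higher in each induced library but not altered (log2 fold change 0.32, limma, BH-adjusted p = 0.0619).

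Among genes of superoxide and hydrogen peroxide, 7 of 14 were tested, 1 rose and 2 fell (42.9% altered, against 16.7% of all tested genes), with a median log2 fold change of 0.19. With 1 library left out 0 of the 7 genes were altered in limma without uninduced replicate 1, induced replicate 1 or induced replicate 3. The share of all tested genes also fell there, to 6.99%, 7.45% and 6.15%. The count was 1 without uninduced replicate 2 (6.26% of all tested genes) and 1 with the replicate number as a block (16.5%). In the reported fit 4 of the 7 had an unadjusted limma p under 0.05, against 33.6% of all tested genes. CAT, catalase, went from 18.6, 20.1 and 20.4 FPKM to 25.5, 24.4 and 24.8 FPKM, a log2 fold change of 0.32. SOD3, the extracellular superoxide dismutase, went from 23.8, 15.7 and 11.4 FPKM to 5.06, 7.90 and 4.80 FPKM, a log2 fold change of -1.35 and the larger of the 2 falls. SOD1 was the most abundant at a mean of 135 FPKM (log2 fold change 0.19, 95% interval -0.02 to 0.40). Of 10 tested haem and iron genes 1 was altered (10%, against 16.7% of all tested genes), ALAS1, the first enzyme of haem synthesis, from 19.4, 21.3 and 21.1 FPKM to 31.4, 31.2 and 30.8 FPKM (log2 fold change 0.57, limma, BH-adjusted p = 0.00609), and the others were not; the median of that list was 0.20.

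**Figure D5:**
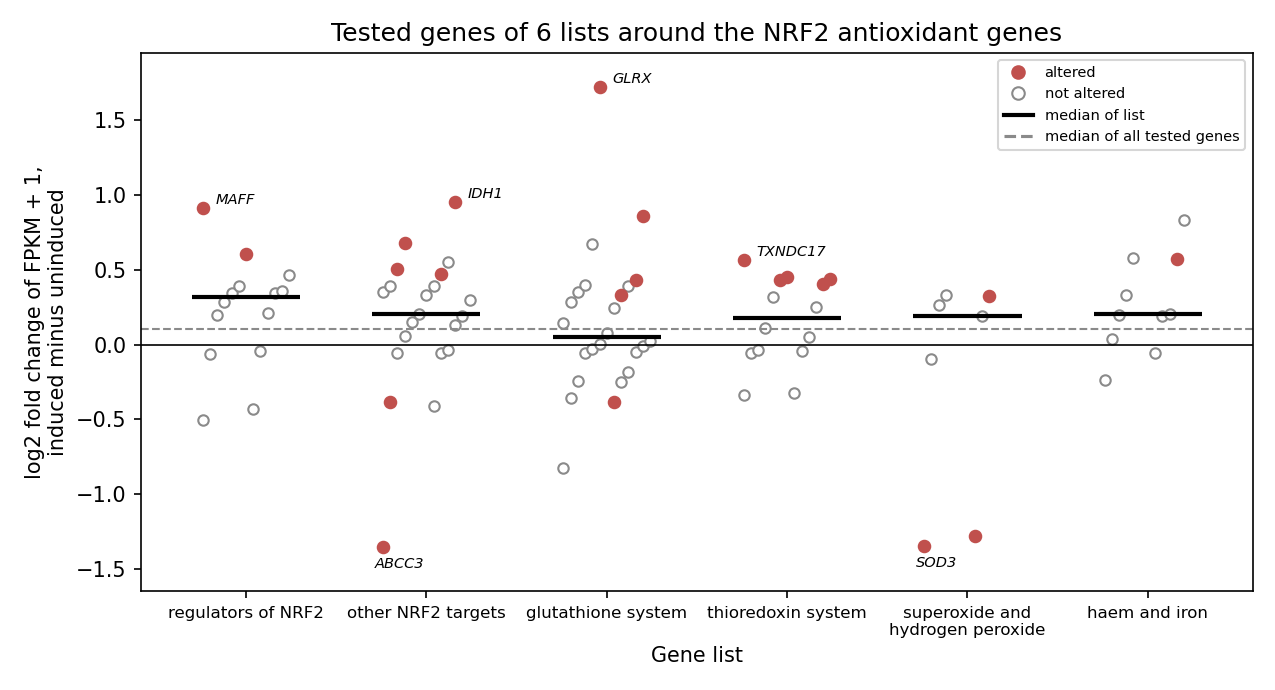
Log2 fold change of FPKM + 1, induced minus uninduced, for each tested gene of the 6 lists (red altered, open not altered), with the median of each list as a black line and that of all 13993 tested genes as a dashed line at 0.10. GLRX at 1.72 stands above the other genes, and ABCC3 and SOD3, each at -1.35, are the lowest.

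The genes most like SRXN1 over the 6 libraries, by Euclidean distance between profiles of log2(FPKM + 1) centred on their own mean, were NUDT22 (distance 0.0763) and GMIP (0.105). NUDT22 was at 15.0, 16.2 and 13.1 FPKM in uninduced and 26.1, 24.5 and 26.2 FPKM in induced cells, a log2 fold change of 0.76. For TXNRD1 the nearest were TIPARP (0.157), TIMM10B (0.187) and HMGA2 (0.201). TIPARP, at 14.8, 12.9 and 11.8 FPKM in uninduced and 27.6, 20.0 and 21.8 FPKM in induced cells, had its highest value in induced library 1 as TXNRD1 did. Likeness over 6 libraries is a description, mostly of the difference between the groups.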

How the data were processed

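RNA of 6 libraries, 3 per group, was analysed from FPKM values per gene, which the authors made with Cufflinks from reads trimmed with Trim Galore 0.3.0 and aligned to hg19 with TopHat2, and deposited in 1 table. Its columns carry a group and a number, not a sample, and served as replicates within each group. A second header line, 120 rows with more than 6 values and 18 unnamed columns were not used. The authors' cuffdiff comparison (group FPKM, fold changes, test statistic, p and q) was not used. FPKM is normalised, so total depth is not given; relative depth was read from the steps of values under 0.3 FPKM.

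For genes averaging 1 FPKM or more, log2(FPKM + 1) went into limma 3.58.1 (lmFit, eBayes with trend; R 4.3.3), two-sided, with Benjamini-Hochberg adjustment, and called altered at an adjusted p at or under 0.05. The step was also run on simulated data, but that outcome is not reported here and no result rests on it. One gene counted in the lists and one near SRXN1 in profile are not reported here by name. Alternatives were a pseudocount of 0.1, no floor or a floor of 5 FPKM, quantile and upper-quartile scaling, eBayes without trend, the replicate number as a block, leaving out each library, a fold threshold, and summing rows of 1 symbol.

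Named genes were all 10 genes of the programme. In each list around it and among the ERK targets, the 4 largest rises and falls among altered genes and the most abundant gene were named. Also named were the 2 ERK targets not altered and the 3 nearest profiles of the 2 tested genes of the programme with the highest log2 fold changes. Of the marker lists the most abundant genes and genes at 0 in every library were named. DCN, TXNIP, HRAS and the overlapping genes were named outside these rules. Where a symbol repeated, the row with the highest mean was taken. The genes and lists were chosen with earlier results of these data known. Overlaps are from GENCODE 44 lifted to GRCh37, in which SOD2 was not matched by identifier, and promoters from RefSeq. Tables were built in Python 3.11.15 (numpy 2.4.6, pandas 2.3.3, scipy 1.17.1) and plots in matplotlib 3.10.9.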

Additional observations from a re-analysis of the deposited data

How the results depend on the processing

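Of all tested genes 2336 were altered, 1543 higher and 793 lower (66.1% higher). The split depended on scaling: quantile normalization gave 1044 higher and 1109 lower (48.5% higher) and upper-quartile scaling 921 and 1101 (45.5%), with the median log2 fold change of all genes at 0.0126 and 0.00467 in place of 0.102. With no floor on low values 1518 of 29362 genes were altered (5.17%), and leaving out 1 library gave 860 to 1872 of 13993 (6.15% to 13.4%). Of the 4 altered genes of the NRF2 programme, 2 stayed altered with no floor, where 5.17% of all 29362 genes were altered. In eBayes without trend 2 stayed altered (14.4% of all tested genes), as after quantile normalization (15.4%) and upper-quartile scaling (14.5%). With 1 library left out 1 to 2 stayed altered (6.15% to 13.4%), and SOD2 was added without uninduced replicate 2. When the limma call also required a change of 1 on the log2 scale in either direction, 0 of the 9 were altered, against 3.92% of all tested genes, while 5 (55.6%) had an unadjusted limma p under 0.05, against 33.6%. The log2 fold change of GCLM, 0.12, turned to -0.012 without uninduced replicate 3, in a range of -0.012 to 0.28 with 1 library left out. Of the 21 altered genes of the 6 lists, 12 stayed altered with no floor and 8 to 15 with 1 library left out. The shares of all genes altered in those fits were 5.17% and 6.15% to 13.4%, against 16.7% in the reported fit. Fits without 1 library rest on fewer samples; the cause of the other changes was not tested. Deviations of same-numbered libraries had correlations across genes from -0.0027 to 0.0481, and those of differently numbered libraries from -0.068 to 0.0311. The reported fit took no pairs, and these values do not settle whether the numbers mark the repeats. With the replicate block 2310 genes, 3 genes of the programme and 21 genes of the lists, 18 of them the same, were altered; KEAP1 had an adjusted limma p of 0.0582. The FPKM table gives no counts, so counting error of low genes such as HMOX1 could not be given.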
